A study of Homo sapiens with 22 samples.

Results

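The genes examined here encode the nuclear subunits of oxidative phosphorylation. They were chosen by gene symbol: the NDUFA, NDUFB, NDUFC, NDUFS and NDUFV series, SDHA to SDHD, the UQCR series and CYC1, the COX subunit families, and the ATP5F, ATP5M and ATP5P series with ATP5IF1. The pattern matched 147 symbols, of which 63 were pseudogene names and were left out, so that 84 of the 60240 genes in the table were kept. They comprised 36 genes of complex I, 4 of complex II, 10 of complex III, 15 of complex IV and 19 of complex V. NDUFA4 was counted with complex IV, where the protein is now placed. The study sequenced polyA RNA in 22 libraries of haematopoietic progenitors differentiated from the human embryonic stem cell line H1. In the DOX groups doxycycline switched on ectopic MYC, and cells were collected on days 12, 14, 16, 18 and 20 of culture. The UT groups were untreated cells, without ectopic MYC, collected on the same days and also on day 10. Each of the 11 groups had 2 libraries. The labels do not give the promoter of the MYC transgene, whether the line is 1 clone, when doxycycline was added, or whether replicates came from separate cultures. The p-values therefore reflect the spread among these libraries, which may be technical. Effects of doxycycline itself and of MYC cannot be told apart in this design.

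Oxidative phosphorylation takes place in the inner mitochondrial membrane. Complex I takes electrons from NADH and complex II from succinate, complex III passes them from ubiquinol to cytochrome c, complex IV passes them to oxygen, and complex V, the ATP synthase, uses the resulting proton gradient to make ATP. Complex II is built from nuclear genes alone and is also the succinate dehydrogenase of the tricarboxylic acid cycle, whereas the other complexes also need subunits made from the mitochondrial genome. MYC binds E-box sequences and is known for raising nuclear genes of mitochondrial biogenesis, and the nuclear respiratory factors NRF1 and GABP (an ETS factor) are known for binding the promoters of many subunit genes.

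Promoter windows of 6 subunit genes are shown because their transcripts carry the main patterns: the complex II genes SDHA, SDHB and SDHD, which fell together with time and were higher in DOX cells, and complex V genes that moved in opposite directions with time, with ATP5F1C falling and ATP5F1E and ATP5ME rising. Each is the stretch of 250 bases before the gene's start in RefSeq (GRCh38.p14), written 5′ to 3′ on the gene's strand, and so lies upstream of that start. In the GENCODE annotation, used here for transcript lengths, each of the 6 genes starts further upstream, inside its window. The end of each window therefore lies within the gene as GENCODE places it. The ETS matches of SDHB and SDHD and the NRF1 match of ATP5F1C lie there as well. In SDHA the NRF1 matches beyond the GENCODE start at position 218241 also lie within the gene. Capitals mark matches on either strand to CACGTG (E-box), CCGGAAG (ETS), GCGCNTGCG (NRF1) or AAGATGGC (YY1). The windows are SDHA at chr5:218070-218319 (plus strand), SDHB at chr1:17054033-17054282 (minus strand), SDHD at chr11:112086623-112086872 (plus strand), ATP5F1C at chr10:7787927-7788176 (plus strand), ATP5F1E at chr20:59032336-59032585 (minus strand) and ATP5ME at chr4:674277-674526 (minus strand).
SDHA: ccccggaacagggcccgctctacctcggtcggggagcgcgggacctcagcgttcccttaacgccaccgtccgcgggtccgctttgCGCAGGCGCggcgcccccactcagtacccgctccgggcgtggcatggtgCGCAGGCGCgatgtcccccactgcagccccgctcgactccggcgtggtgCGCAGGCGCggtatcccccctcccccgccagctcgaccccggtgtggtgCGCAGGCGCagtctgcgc
SDHB: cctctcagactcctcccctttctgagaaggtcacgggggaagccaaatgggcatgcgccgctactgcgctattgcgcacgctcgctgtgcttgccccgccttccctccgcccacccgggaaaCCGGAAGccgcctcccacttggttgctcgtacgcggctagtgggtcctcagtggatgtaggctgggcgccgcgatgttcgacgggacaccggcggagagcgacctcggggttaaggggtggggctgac
SDHD: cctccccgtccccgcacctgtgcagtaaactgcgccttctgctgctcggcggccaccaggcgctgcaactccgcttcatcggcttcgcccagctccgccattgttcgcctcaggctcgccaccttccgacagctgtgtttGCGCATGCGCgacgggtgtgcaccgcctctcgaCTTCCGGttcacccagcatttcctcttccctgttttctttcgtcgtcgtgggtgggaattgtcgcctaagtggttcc
ATP5F1C: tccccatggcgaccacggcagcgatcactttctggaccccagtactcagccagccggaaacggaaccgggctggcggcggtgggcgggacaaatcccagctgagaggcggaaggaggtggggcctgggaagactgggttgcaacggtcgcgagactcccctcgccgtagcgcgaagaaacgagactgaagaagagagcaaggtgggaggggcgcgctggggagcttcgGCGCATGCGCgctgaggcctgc
ATP5F1E: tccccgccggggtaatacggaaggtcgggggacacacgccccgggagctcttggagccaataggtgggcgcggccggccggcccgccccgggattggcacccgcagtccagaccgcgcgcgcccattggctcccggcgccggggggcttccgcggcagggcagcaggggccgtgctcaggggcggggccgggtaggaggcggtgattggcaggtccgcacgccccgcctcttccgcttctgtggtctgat
ATP5ME: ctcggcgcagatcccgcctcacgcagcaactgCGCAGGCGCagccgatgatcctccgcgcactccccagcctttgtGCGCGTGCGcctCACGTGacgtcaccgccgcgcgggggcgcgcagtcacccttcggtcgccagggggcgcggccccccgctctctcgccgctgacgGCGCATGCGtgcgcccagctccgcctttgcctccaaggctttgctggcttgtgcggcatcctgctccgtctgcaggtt
The SDHA window holds 4 NRF1 matches, the SDHB window 1 ETS match, and the SDHD window 1 ETS match and an NRF1 match that reads on both strands. The ATP5F1C window has an NRF1 match that likewise reads on both strands, the ATP5F1E window has none of the 4 motifs, and the ATP5ME window has 1 E-box and 3 NRF1 matches. A RefSeq promoter entry was found for 67 of the 84 genes. Of these genes, 34.3% held the NRF1 letters, against 7.99% of all 27305 genes with windows of the same length. The ETS letters were held by 26.9%, against 10.2% of all genes. The E-box was found for 8.96% of the subunit genes and for 7.73% of all genes, and the YY1 letters for 1.49% and 1.64%. Of subunits with a promoter entry, 9 of 23 that fell and 9 of 23 that rose in UT cells by day 20 against day 12 held the NRF1 letters. These counts describe letters in a window and do not show binding.

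Library totals lay between 24730502 and 53508548 counts. Counts from the mitochondrial genome made up between 8.51% and 72.9% of a library, and were highest on day 20 in both arms. The 84 subunits took between 0.259% and 0.970% of the counts in DOX libraries and between 0.118% and 1.04% in UT libraries. Levels are therefore given as counts relative to a common total (CPM), with library sizes scaled by the trimmed mean of M-values (TMM), which lowers the weight of such dominant transcripts. The row for MYC, which counts native and ectopic transcripts together, read 242 and 232 CPM in DOX cells on day 12, against 126 and 121 CPM in UT cells. MYC was higher in DOX cells on average over the days (log2 fold change 0.83 ± 0.11 SE, adjusted p = 4.3e-06), and on day 20 it read 49.6 and 28.9 CPM in DOX cells, against 34.6 and 28.7 CPM in UT cells. By day, MYC passed the edgeR test on days 12, 14 and 16, but not on day 18 (0.65 ± 0.25, adjusted p = 0.051) or day 20 (0.31 ± 0.26, adjusted p = 0.39). Cell type markers also moved. Summed mast cell, basophil and eosinophil markers lay between 174 and 8093 CPM in DOX libraries and between 25.9 and 25699 CPM in UT libraries, and all 4 were lower in DOX cells on average. Haematopoietic progenitor markers, which check the labelled cell type, summed to 813 to 1084 CPM in DOX libraries and 957 to 1437 CPM in UT libraries, and 1 of 7 was higher and 4 lower in DOX cells on average. On average 5 of 6 erythroid markers were higher in DOX cells and 1 lower (median 1.13), 4 of 4 megakaryocyte markers were higher (median 1.10) and 4 of 4 endothelial markers were higher (median 0.65). All 5 granulocyte markers (median -0.84) and all 4 monocyte markers (median -0.61) were lower in DOX cells. On day 16 the megakaryocyte markers summed to between 1486 and 1921 CPM in DOX libraries and between 624 and 631 CPM in UT libraries. The erythroid markers summed to between 867 and 1193 CPM in DOX libraries and between 373 and 437 CPM in UT libraries. On day 14 the order was opposite for both. The megakaryocyte markers then summed to between 1530 and 1538 CPM in DOX libraries and between 2131 and 2769 CPM in UT libraries. The erythroid markers then summed to between 884 and 930 CPM in DOX libraries and between 1056 and 1223 CPM in UT libraries. Endothelial markers on day 12 summed to between 560 and 601 CPM in DOX libraries and to 840 CPM in UT libraries. Summed fibroblast markers, at most 35.9 CPM elsewhere, read 509 CPM in 1 UT library of day 16. The part of these markers in the subunit values was not tested. In such bulk samples a smaller number of cells of a type and less RNA per cell cannot be told apart.

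Of the 84 subunits, 78 passed the filter on low counts. The other 6 were tissue-restricted or duplicate forms: COX6A2, the heart and muscle form of COX6A, had 8 counts over all 22 libraries, and COX6B2, the testis form of COX6B, had 48. COX7A1, the heart and muscle form of COX7A, had 33 counts, COX8C 25, COX7B2 0, and ATP5MGL, a copy of ATP5MG, 60. Per length (mean CPM over all libraries per kilobase of transcript), the most abundant subunits were NDUFB1 at 141 in complex I, SDHC at 64.3 in complex II, UQCRB at 366 in complex III, COX7C at 220 in complex IV and ATP5MC2 at 258 in complex V.

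The summed level of all subunits went up and then down in both arms, and its highest group came later in DOX cells. In DOX cells the mean sum was 4692 CPM at day 12, 5918 CPM at day 14 and 6791 CPM at its highest, at day 16, with 5234 CPM left at day 18 and 4463 CPM at day 20. In UT cells it was 4812 CPM at day 10, 3987 CPM at day 12 and 6227 CPM at its highest, at day 14, with 4971 CPM left at day 16, 4078 CPM at day 18 and 3702 CPM at day 20. The 2 libraries of a group did not overlap with those of the neighbouring day at the UT peak, where day 14 read 5897 and 6558 CPM, against 5242 and 4699 CPM on day 16. At the DOX peak, day 16 read 6385 and 7196 CPM, against 6228 and 5609 CPM on day 14. As shares of all counts, without TMM scaling, these DOX libraries read 0.880% and 0.956% on day 16, against 0.970% and 0.831% on day 14. On that measure the 2 days overlapped. Counted gene by gene over days 12 to 20, 41 of the 78 subunits had their highest mean level on day 16 in DOX cells and 20 on day 14, whereas 15 had it on day 16 in UT cells and 52 on day 14. Peak days of genes outside the subunits are not given, so the shift is not read as particular to the subunits. In complex II the highest mean came on day 14 in DOX cells. As group means, its 4 genes summed to 203 CPM at day 12 and 251 CPM at day 14 in DOX cells, and then to 209, 125 and 98.9 CPM at the 3 later days. In UT cells they summed to 216, 190 and 201 CPM at the first 3 days and to 94.8, 83.8 and 69.5 CPM at the last 3.

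**Figure D1:**
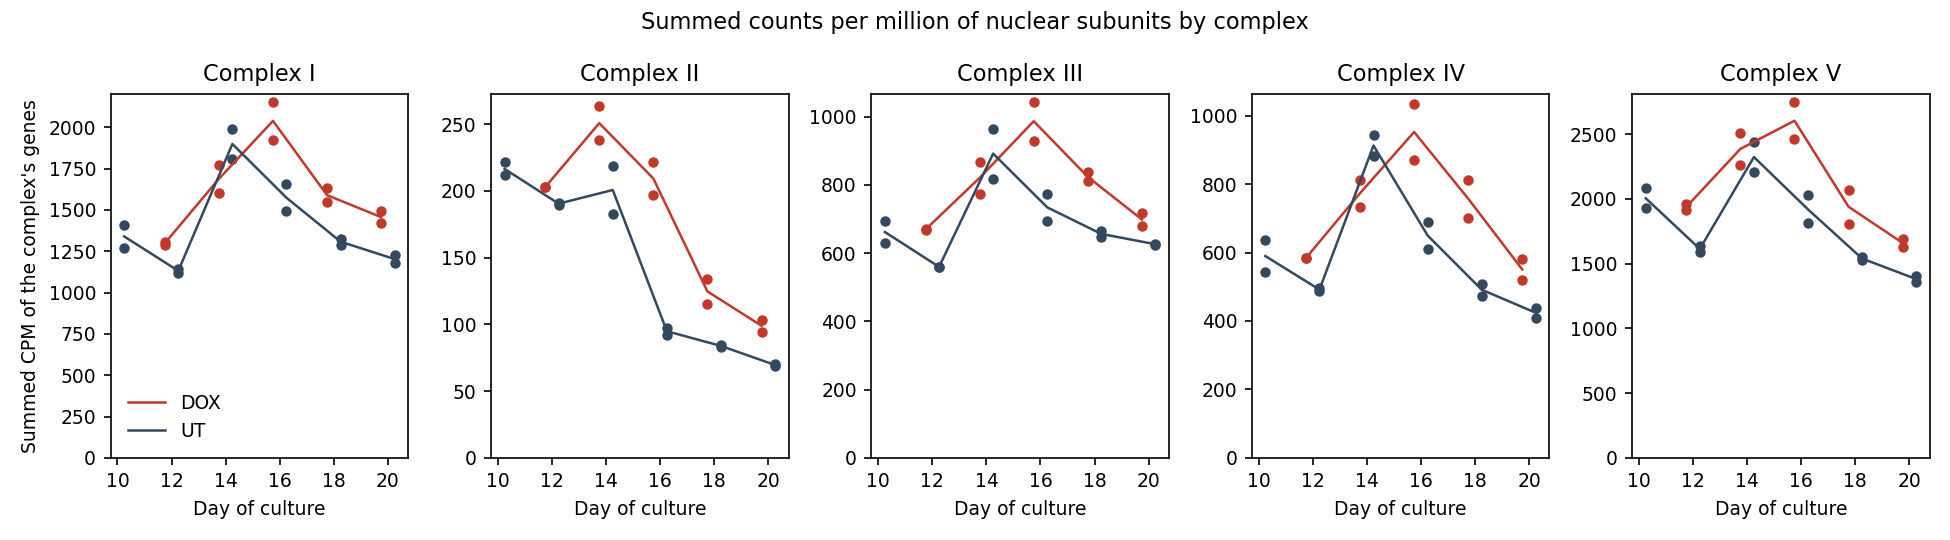
Summed CPM (y axis, starting at 0) of the nuclear subunits of each complex by day of culture, with DOX drawn just left of UT, 1 point per library and a line through the group means. In complexes I, III, IV and V the mean was highest on day 16 in DOX cells and on day 14 in UT cells, and complex II was highest on day 14 in DOX cells and on day 10 in UT cells.

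The first comparison asked how the subunits differed with ectopic MYC over the whole course. Averaged over days 12 to 20, 49 of the 78 subunits tested were higher in DOX cells than in UT cells at the same days, 3 were lower and 26 did not pass the test (edgeR quasi-likelihood test on all 22 libraries, Benjamini-Hochberg adjusted p under 0.05 over 20115 genes). The background was 52.9% of all genes called, 29.8% higher and 23.0% lower, against 62.8% and 3.85% of the subunits. The median log2 fold change was 0.28 over the subunits and 0.08 over all genes tested. All complexes had members that were higher: 19 of 36 in complex I, 4 of 4 in complex II, 5 of 10 in complex III, 8 of the 10 tested in complex IV and 13 of the 18 tested in complex V, with medians of 0.18, 0.55, 0.26, 0.39 and 0.29 in that order. With libraries scaled by their totals alone, 78 subunits were higher and 0 lower, with a median of 0.81 over the subunits and 0.60 over all genes.

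**Figure D2:**
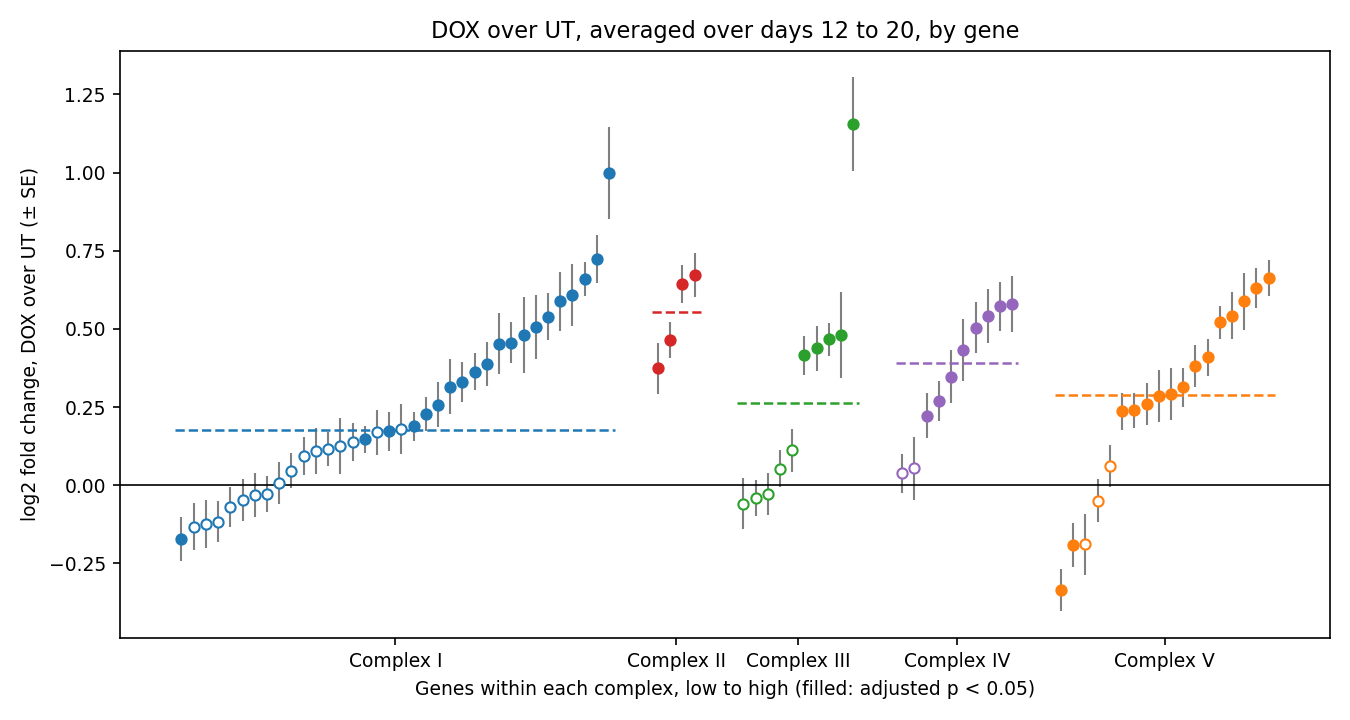
Log2 fold change of DOX over UT averaged over days 12 to 20 (y axis, ± SE) for each tested subunit, sorted within complexes I to V along the x axis, with filled points at adjusted p under 0.05 and a dashed line at each complex's median. All 4 complex II genes lie between 0.37 and 0.67, and 3 genes, 1 of complex I and 2 of complex V, are filled below 0.

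All 4 subunits of complex II were higher in DOX cells. SDHB, the iron-sulphur subunit, read 52.4 and 60.4 CPM in DOX cells on day 16, against 25.3 and 20.0 CPM in UT cells, with a log2 fold change over all days of 0.67 ± 0.07 (adjusted p = 2.3e-07). SDHD, a membrane anchor, read 47.3 and 50.9 CPM in DOX cells on day 16, against 20.3 and 18.4 CPM in UT cells (averaged 0.64 ± 0.06, adjusted p = 5.8e-08). For both genes the DOX libraries of that day lay above those of UT by more than the spread of either group. SDHA, the flavoprotein that oxidises succinate, had an averaged log2 fold change of 0.46 ± 0.06, and SDHC, the other anchor, 0.37 ± 0.08. The day 12 differences were small, at 0.05 ± 0.13 for SDHA and 0.05 ± 0.13 for SDHD, and neither passed the test.

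In complex I the largest averaged difference was that of NDUFB6, an accessory subunit of the membrane arm, at 1.00 ± 0.15 (adjusted p = 1.4e-05). NDUFS1, the large iron-sulphur subunit, stood at 0.66 ± 0.05 (adjusted p = 1.1e-08). NDUFB6 read 15.9 and 16.0 CPM in DOX cells on day 16, against 4.17 and 4.71 CPM in UT cells, so that the groups were well apart. NDUFS8, an iron-sulphur subunit of the quinone module, was lower at -0.17 ± 0.07 (adjusted p = 0.049), a call lost when any of 17 of the 20 libraries was left out singly, and NDUFA2 stood at -0.13 ± 0.08 without passing the test. By position in the complex, 6 of 10 genes of the NADH-oxidising module, 2 of 5 of the quinone module, 5 of 10 of the proximal membrane arm and 6 of 11 of the distal membrane arm were higher, with medians of 0.20, 0.13, 0.18 and 0.19. These medians lay close together beside the range within each module.

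In complex III, UQCRHL had the largest value of all subunits, 1.15 ± 0.15 (adjusted p = 3.4e-06). It is a near-identical copy of UQCRH, the hinge subunit, and the assignment of reads between the 2 genes is uncertain. CYC1, cytochrome c1, stood at 0.48 ± 0.14 and UQCRC2, a core protein, at 0.47 ± 0.05, and both were higher in DOX cells. With days 16, 18 and 20 alone CYC1 lost its call and UQCRC2 kept it. UQCRC1, the other core protein, at -0.04 ± 0.06, and UQCRQ at -0.06 ± 0.08 did not pass the test. In complex IV, COX7B stood at 0.58 ± 0.09, COX5A at 0.57 ± 0.08 and NDUFA4 at 0.54 ± 0.09, and all passed the test, whereas COX6B1 at 0.04 ± 0.06 and COX8A at 0.05 ± 0.10 did not. COX5A and COX7B are structural subunits around the catalytic core, which is made in the mitochondrion.

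The head of the ATP synthase was split. ATP5F1A and ATP5F1B, the alpha and beta subunits that form the catalytic ring, were higher at 0.52 ± 0.05 and 0.66 ± 0.06, and ATP5F1C, the gamma shaft, at 0.63 ± 0.06. ATP5F1D and ATP5F1E, the delta and epsilon subunits at the foot of the shaft, were lower at -0.19 ± 0.07 (adjusted p = 0.026) and -0.34 ± 0.07 (adjusted p = 0.00033), although with library totals alone they stood above 0, at 0.34 and 0.20, as did NDUFS8 at 0.36. The call of ATP5F1D was lost when any of 12 of the 20 libraries was left out singly. On day 16 ATP5F1B read 314 and 339 CPM in DOX cells, against 140 and 124 CPM in UT cells. On the same day ATP5F1E read 151 and 178 CPM in DOX cells, against 244 and 222 CPM in UT cells. The groups did not overlap for either gene, and their order was opposite. For each of ATP5F1A, ATP5F1B and ATP5F1C the 2 DOX libraries lay above both UT libraries on each of the 5 days. The membrane part of complex V had 9 of the 12 tested genes higher and 0 lower, led by ATP5MD at 0.59 ± 0.09, and the inhibitor ATP5IF1, which blocks ATP hydrolysis by the synthase, stood at 0.29 ± 0.08 (adjusted p = 0.0065).

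Day by day, more subunits were lower than higher in DOX cells on day 14, and far more were higher than lower from day 16 on. On day 12, when MYC already differed, 0 of 78 subunits passed the test, against a background of 3.11% of all genes called by edgeR (0.845% higher and 2.26% lower). All 78 had a log2 fold change above 0 on that day, with a median of 0.24, against a median of 0.03 over all genes. The share of all genes with a value above 0 is not given, so this count of signs is not read as particular to the subunits. At an unadjusted p under 0.05 the edgeR test counted 17 on that day, and DESeq2 and limma-voom each called 4 after adjustment. On day 14, 10 subunits were higher in DOX cells and 22 lower (background 27.0% called, 15.3% higher and 11.7% lower), with a median of -0.14. On day 16, 47 were higher and 4 lower (39.9% of all genes called, 21.2% higher and 18.7% lower), with a median of 0.51. On day 18, 39 were higher and 2 lower (35.8% called, 19.8% higher and 16.0% lower), with a median of 0.46. On day 20, 24 were higher and 0 lower (27.8% called, 15.9% higher and 11.9% lower), with a median of 0.33. The day 20 count was 8 without the first DOX library of that day and 14 without the second UT library. Averaged over days 12 and 14 alone, 12 of 78 subunits were higher, a share near the 14.2% of all genes, and 2 were lower, against 10.8% of all genes. Averaged over days 16, 18 and 20 alone, 52 were higher (29.5% of all genes) and 2 lower (23.7% of all genes).

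On day 14 subunits of all 5 complexes were higher in DOX cells, and subunits of complexes I, III, IV and V were lower. The 10 that were higher included ATP5F1B (0.92 ± 0.13), CYC1 (0.90 ± 0.30), NDUFS1 (0.70 ± 0.12), COX5A (0.66 ± 0.17), UQCRC2 (0.65 ± 0.12) and SDHA (0.56 ± 0.13). The 22 that were lower included the small accessory subunits NDUFB1 (-0.92 ± 0.17), NDUFA2 (-0.72 ± 0.17), COX6B1 (-0.50 ± 0.14) and UQCRQ (-0.50 ± 0.18), and ATP5F1E (-0.77 ± 0.15). NDUFB1 read 52.5 and 45.9 CPM in DOX cells on day 14, against 75.9 and 110 CPM in UT cells. The groups did not overlap, but the 2 UT libraries of day 14 differed more from each other than those of any other group, with 17.5% and 9.95% of counts from the mitochondrial genome. Without the second UT library of that day 13 subunits were called, and without the second DOX library 9. All 10 subunits that were higher on day 14 were also higher on day 16, and 12 of the 22 that were lower had a log2 fold change above 0 on day 16, of which 4 passed the test there. These counts have no match over all genes and are not read as particular to the subunits.

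**Figure D3:**
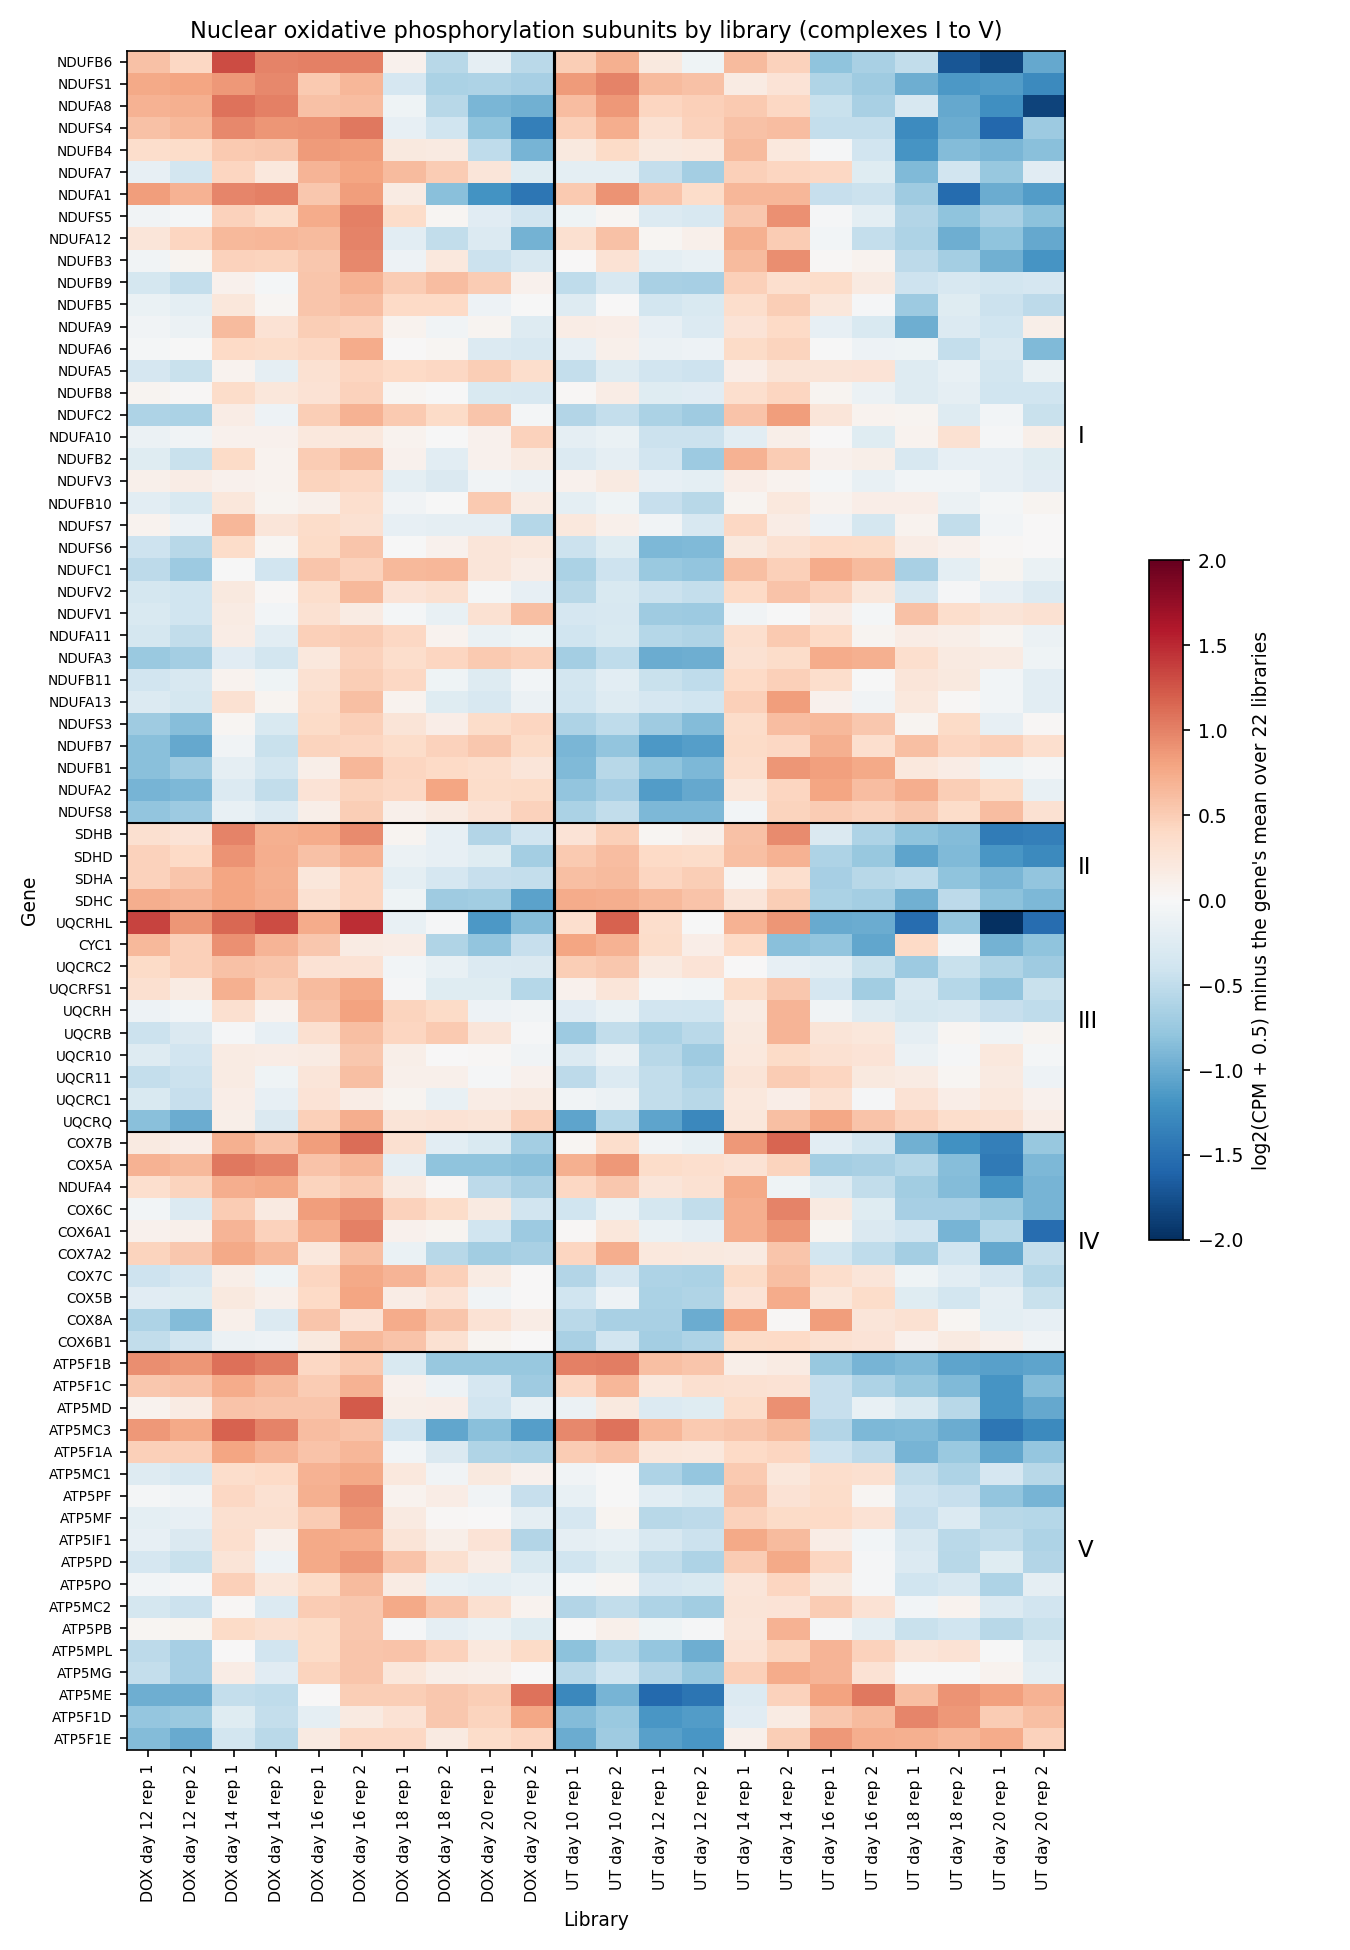
Level of 77 of the tested subunits (rows, sorted within complexes I to V by the averaged log2 fold change) in each of the 22 libraries (columns, DOX left of the black line and UT right of it), as log2(CPM + 0.5) minus the gene's mean, with red above and blue below the mean. The UT columns of days 16 to 20 are blue for genes such as NDUFS1, SDHB, COX5A and ATP5F1B and red for ATP5ME, ATP5F1D and ATP5F1E, and these 3 are blue in both arms on day 12.

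The difference between the arms itself changed from day 14 to day 16. In a comparison added after the day values were seen, 34 subunits had a DOX over UT difference that was higher on day 16 than on day 14 and 0 had a lower one, against 8.64% of all genes called, 4.45% higher and 4.19% lower, and the median change was 0.64, against 0.03 over all genes. COX7B changed by 1.65 ± 0.28 (adjusted p = 0.0016) and COX6C, another structural subunit of complex IV, by 1.42 ± 0.25 (adjusted p = 0.0022). COX7B read 75.3 and 68.4 CPM in DOX cells on day 14, against 83.4 and 103 CPM in UT cells, and 81.7 and 99.6 CPM in DOX cells on day 16, against 39.6 and 35.4 CPM in UT cells. The UT libraries thus lay above those of DOX on day 14 and far below them on day 16. The steps within each arm, also added, gave 37 subunits that fell and 4 that rose in UT cells on day 16 against day 14 (29.4% of all genes called, 15.6% lower and 13.9% higher), and 26 that rose and 2 that fell in DOX cells (13.7% called, 5.53% higher and 8.13% lower). On day 14 against day 12, 14 subunits rose and 0 fell in DOX cells (6.21% of all genes called, 3.36% higher and 2.86% lower), and 57 rose and 2 fell in UT cells (33.2% called, 15.8% higher and 17.4% lower). Without the second UT library of day 16, the one with fibroblast markers, 33 subunits were higher and 1 lower on day 16, and 11 had a change of the difference. Without the second DOX library of day 14, 9 subunits had a change of the difference and 1 was called between DOX days 16 and 14, and without the second DOX library of day 16 these counts were 10 and 4. Without the second UT library of day 14, 22 had a change of the difference. The 14 rises in DOX cells on day 14 against day 12 fell to between 0 and 9 when any of the 4 libraries was left out. With library totals alone 77 subunits fell in UT cells on day 16 against day 14 and 0 rose, where the median over all genes was -1.15. In DOX cells 3 subunits then rose and 7 fell over that step, so most of the DOX rises were called only under TMM scaling. The median there was 0.17 over the subunits and -0.17 over all genes.

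Between day 12 and day 20 some subunits fell and others rose, and each arm gave the same sign for the genes called in both. On day 20 against day 12, 29 subunits rose and 26 fell in DOX cells (56.4% of all genes called, 26.7% higher and 29.7% lower), and 26 rose and 31 fell in UT cells (60.5% called, 27.6% higher and 32.9% lower). In both arms 24 rose and 25 fell, and 0 moved in opposite directions. No joint count over all genes stands beside these, so they are not read as particular to the subunits. The 2 sets of fold changes share no library, and across the 78 subunits their Spearman correlation was 0.96, against 0.75 across the other 20037 genes, as a description across genes that are not independent. On day 20 against day 10 in UT cells, 18 rose and 38 fell (62.3% called, 28.1% higher and 34.2% lower). With library totals alone, where the median over all genes was -2.35 in UT cells and -1.26 in DOX cells, 0 subunits rose and 77 fell in UT cells on day 20 against day 12, and 1 rose and 64 fell in DOX cells, so the rises hold under TMM scaling and not under library totals.

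**Figure D4:**
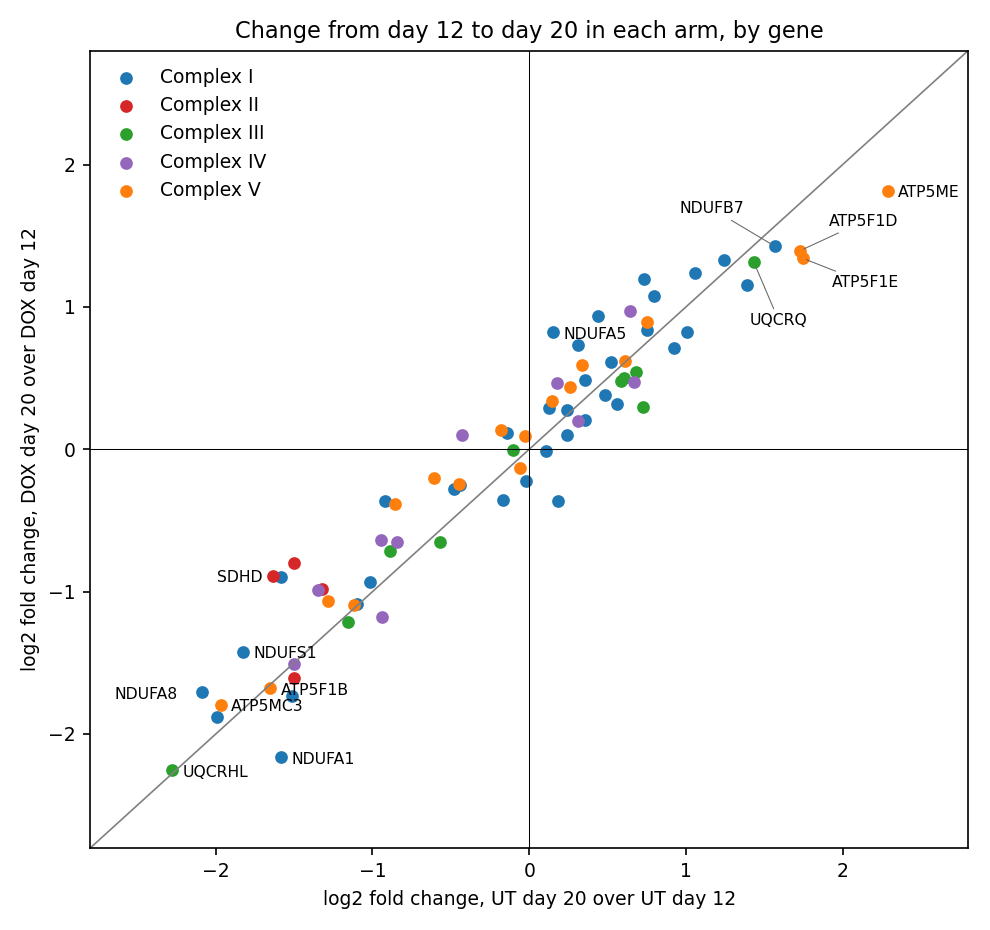
Log2 fold change of day 20 over day 12 in DOX cells (y axis) against that in UT cells (x axis) for the 78 tested subunits, coloured by complex, with a line of equal change and selected genes named. The points follow the line, from UQCRHL at the lower left to ATP5ME at the upper right, and the 4 complex II genes lie below 0 in both arms.

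All 4 complex II genes fell in both arms. SDHA read 40.0 and 39.2 CPM in DOX cells on day 20, against 75.8 and 80.7 CPM on day 12 (log2 fold change -0.98 ± 0.13, adjusted p = 3.1e-06). In UT cells SDHA read 28.9 and 31.6 CPM on day 20, against 74.1 and 77.3 CPM on day 12 (-1.32 ± 0.13, adjusted p = 9.2e-08). In neither arm did the days overlap. NDUFS1 fell by 1.43 on the log2 scale in DOX cells and by 1.83 in UT cells. In complex V the catalytic subunits ATP5F1A and ATP5F1B fell by 1.10 and 1.68 in DOX cells and by 1.12 and 1.65 in UT cells. The foot of the shaft rose instead: ATP5F1E read 172 and 181 CPM in DOX cells on day 20, against 72.8 and 66.3 CPM on day 12 (1.34 ± 0.15), and 224 and 185 CPM in UT cells on day 20, against 62.6 and 59.6 CPM on day 12 (1.74 ± 0.15). ATP5ME, the e subunit of the membrane part, rose most, by 1.82 ± 0.22 in DOX cells and 2.29 ± 0.23 in UT cells. Against day 10, the largest rises in UT cells on day 20 were those of ATP5ME (1.88 ± 0.23) and ATP5F1E (1.46 ± 0.15). The largest falls were those of UQCRHL (-2.93 ± 0.38) and ATP5MC3 (-2.40 ± 0.18), with NDUFA8 next (-2.40 ± 0.25), and several falls were larger in size than either rise.

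The difference of the arms over the same span was tested directly. The DOX over UT difference on day 20 was larger than that on day 12 for 2 subunits and smaller for 0, against 8.96% of all genes called, 5.62% with a larger and 3.34% with a smaller difference. SDHD changed by 0.75 ± 0.19 (adjusted p = 0.021), with 26.4 and 19.4 CPM in DOX cells on day 20, against 13.6 and 12.7 CPM in UT cells. NDUFA5, an accessory subunit of the quinone module, changed by 0.67 ± 0.17 (adjusted p = 0.022), with 72.3 and 65.4 CPM in DOX cells on day 20, against 39.6 and 46.9 CPM in UT cells. For both genes the groups overlapped on day 12, where SDHD read 43.5 and 41.4 CPM in DOX cells, against 41.5 and 40.4 CPM in UT cells. The 2 most negative changes, those of NDUFA1 (-0.58 ± 0.40) and NDUFS7 (-0.54 ± 0.29), did not pass the test. Leaving out either DOX or either UT library of day 12, or the first DOX library of day 20, left 0 calls, and leaving out the others left between 1 and 5.

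The 3 genes ATP5MC1, ATP5MC2 and ATP5MC3 encode the same mature c subunit of the rotor ring, with different targeting sequences, and the levels of these genes moved differently with time. ATP5MC3 read 32.0 and 26.7 CPM in DOX cells on day 20, against 106 and 97.4 CPM on day 12, and 21.0 and 23.6 CPM in UT cells on day 20, against 91.8 and 82.7 CPM on day 12. ATP5MC2 rose, with 251 and 210 CPM in DOX cells on day 20, against 157 and 150 CPM on day 12 (0.59 ± 0.13, adjusted p = 0.00075), and 0.33 ± 0.13 in UT cells (adjusted p = 0.033). Of 11 related pairs, 5 had both genes above the filter, and the log2 ratio of their counts within each library was compared between the arms by an exact two-sided permutation test within days, adjusted over the 5 pairs. ATP5MC1 relative to ATP5MC2 was higher in DOX cells by 0.17 (adjusted p = 0.018), with the 2 groups apart on 3 of 5 days, and lost the call without any of 4 libraries. UQCRHL relative to UQCRH was higher by 0.76 (adjusted p = 0.0039). ATP5MC1 and ATP5MC2 relative to ATP5MC3 differed by -0.13 and -0.30, and neither passed the exact permutation test (adjusted p = 0.40 and 0.16). NDUFA4L2, a relative of NDUFA4 known for induction by low oxygen, never passed 0.473 CPM in DOX libraries and 0.116 CPM in UT libraries, and its ratio turned sign with the pseudocount.

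Transcripts of the mitochondrial genome moved apart from the nuclear subunits. The 13 mitochondrial mRNAs numbered 19.7 and 17.5 counts per count of nuclear subunits in DOX cells on day 16, against 128 and 133 in UT cells. On day 20 they numbered 148 and 195 in DOX cells, against 449 and 531 in UT cells, and on day 12 they numbered 12.5 and 15.7 in DOX cells, against 13.6 and 14.8 in UT cells. The arms overlapped on days 12 and 14 and were apart from day 16 on. All 13 were lower in DOX cells on average (median -0.97), and all 13 rose on day 20 against day 12 in both arms, with medians of 3.50 in DOX cells and 5.02 in UT cells. With mitochondrial genes removed before scaling, 51 subunits were higher in DOX cells on average and 2 lower. The part of the mitochondrial share in the values of the nuclear subunits was not tested.

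**Figure D5:**
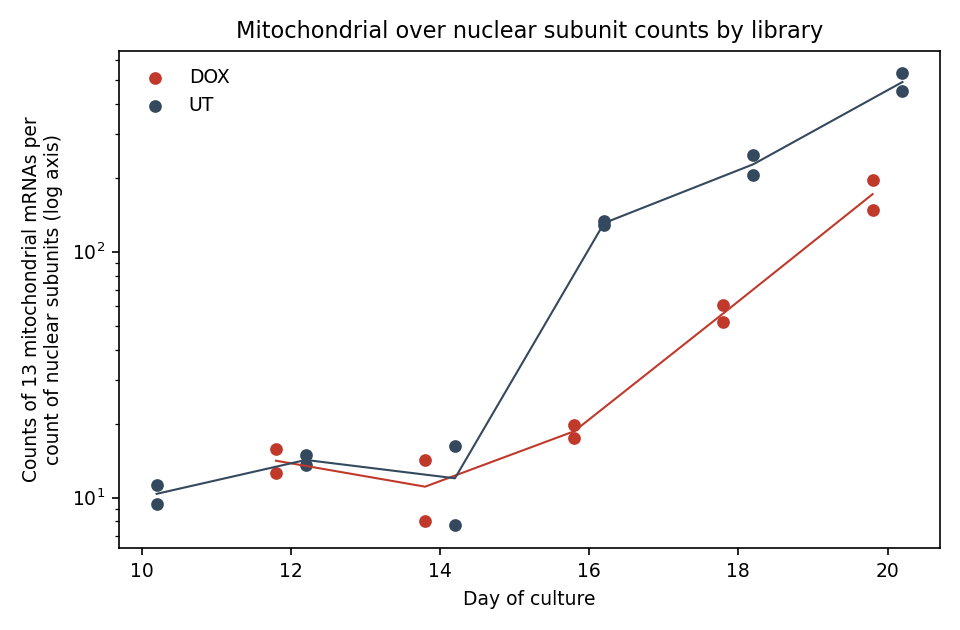
Counts of the 13 mitochondrial mRNAs per count of the nuclear subunits (y axis, logarithmic) in each library by day of culture, with DOX drawn just left of UT and lines through the group means. The points of both arms overlap on days 12 and 14, and the DOX points lie below the UT points from day 16 on.

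Other genes of the pathway were counted in the averaged comparison in the same way, where 29.8% of all genes were higher in DOX cells and 23.0% lower, with a median of 0.08. Of 49 assembly factors, which insert cofactors and join subunits, 27 were higher in DOX cells and 7 lower (median 0.26), led by SDHAF3, a complex II factor, at 1.11 ± 0.13, with COA3, a complex IV factor, at -0.50 ± 0.05. Of 13 tricarboxylic acid cycle genes 12 were higher and 1 lower (median 0.40), with fumarase, FH, at 0.97 ± 0.06 and IDH3G at -0.30 ± 0.06. Of 15 regulators of mitochondrial genes 8 were higher and 0 lower (median 0.26), the largest being TWNK, the mitochondrial DNA helicase, at 1.39 ± 0.10. Of 78 mitochondrial ribosomal proteins 50 were higher and 8 lower (median 0.35), with MRPL3 at 1.00 ± 0.06 and MRPS6 at -0.52 ± 0.08. Of 6 subunits or carriers outside the symbol pattern 5 were tested and 3 were higher, including the electron carrier CYCS, cytochrome c, at 0.62 ± 0.07.

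Base composition differed between the subunits that rose and those that fell. The 26 subunits that rose in UT cells on day 20 against day 12 had a median transcript GC content of 55.3%, and the 31 that fell 45.7%. The Spearman correlation with GC content across the 78 subunits was 0.43 for that change, 0.34 for the change in DOX cells and -0.44 for the averaged DOX over UT value, and over all genes with a transcript it was 0.19, 0.23 and -0.18. With transcript length the correlations across the subunits were -0.27, -0.31 and 0.22, and over all genes with a transcript -0.19, -0.26 and 0.036. The part of GC content and length in these differences was not tested.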

How the data were processed

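RNA of 22 libraries was analysed. The authors deposited expected counts per gene (estimated reads, not normalised), made with Trim Galore 0.6.5, STAR and Salmon on hg38, per the submitters' processing notes. For STAR and Salmon no version, and for the counting no annotation release or strand setting, is given in the sources used here. Expected counts were rounded to whole numbers. Genes were kept with edgeR's filterByExpr (minimum count 10), scaled by TMM and tested with edgeR 4.0.16 (quasi-likelihood test, R 4.3.3), 11 groups in 1 fit with 11 residual degrees of freedom, Benjamini-Hochberg adjusted over 20115 genes at 0.05. CPM used TMM-scaled library sizes. The scripts were tested on simulated data. Alternatives used DESeq2 1.42.0, limma 3.58.1, other scalings and filters, other sets of days and single libraries left out. Ratios of related genes were log2 of counts plus 0.5. Lengths and GC content came from GENCODE 29 transcripts, promoters from RefSeq, and derived values were computed in Python 3.11.15.

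The members and all lists were chosen with earlier results of these data known. Named genes were, per complex, the 3 largest and 2 smallest averaged values, the 2 largest and 2 smallest for UT day 20 against day 10 and for the change of the difference, the most abundant per length, related genes, members that did not pass the filter, MYC and, from each other list, the called genes with the largest and smallest averaged value. NDUFA5, NDUFA8, NDUFB7, COX6C, ATP5F1A, ATP5IF1, CYCS and the single steps between days were picked after their values were seen. Same-numbered replicates did not pair: over 55 pairs of groups the correlation of their deviations had a median of 0.038, and 50 were at or below 0.1. The values of 1 subunit are not reported here by name.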

Additional observations from a re-analysis of the deposited data

Results flagged for a closer look

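Between day 12 and day 20 the DOX over UT difference changed for 2 of 78 subunits by the test of the difference itself, SDHD by 0.75 and NDUFA5 by 0.67 on the log2 scale. The subunits' share, 2.56%, was below the 8.96% of all genes called, and 0 calls were left without either DOX or either UT library of day 12, or without the first DOX library of day 20. Between day 14 and day 16, in a comparison added after the day values were seen, the difference changed for 34 subunits, against 8.64% of all genes called. The largest changes were those of UQCRHL (1.81), COX7B (1.65) and COX6C (1.42). With 1 library left out at a time, between 9 and 34 subunits were called. UQCRHL shares near-identical sequence with UQCRH, and its counts are uncertain.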

How the results depend on the processing

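With library totals alone in place of TMM, 78 subunits were higher in DOX cells on average (median over all genes 0.60). Then 77 were called on day 18 (all genes 0.98) and 77 on day 20 (0.95). For the change of the difference 70 were called over days 12 to 20 (1.03) and 78 over days 14 to 16 (0.98). The steps gave 77 for UT day 16 against 14 (-1.15), 6 for DOX day 14 against 12 (0.041) and 10 for DOX day 16 against 14 (-0.17). Of those 10, 3 rose and 7 fell. Counts under the other settings below are of subunits alone. The averaged values then changed sign for ATP5F1D (0.34), ATP5F1E (0.20), ATP5ME (0.34), NDUFA2 (0.40), NDUFB1 (0.41), NDUFS8 (0.36), UQCRC1 (0.50) and UQCRQ (0.47). On days 12 and 14 alone, 12 subunits were higher, and ATP5F1D (0.027), ATP5MC2 (-0.052), COX6B1 (-0.14), COX7B (-0.059), COX7C (-0.12), COX8A (-0.23) and UQCRB (-0.16) changed sign. There the ratios stood at 0.27 for ATP5MC1 to ATP5MC2, 1.49 for NDUFA4L2 to NDUFA4 and 0.67 for UQCRHL to UQCRH. With so few days the exact permutation test has too few arrangements for any ratio to pass 0.05, so it could not decide there. On days 16, 18 and 20 alone NDUFB1 stood at 0.072. COX6B1 stood at -0.0068 with DESeq2 and with its size factors in edgeR, and at -0.017 with a minimum of 1 CPM in 4 libraries, where COX8A stood at -0.00084. On day 12, 2 subunits were called with no filter, 4 with DESeq2, 4 with limma-voom and 3 with the replicate block. On day 20, 15 were called with DESeq2 size factors and 14 with limma-voom, which called 1 for the change of the difference over days 12 to 20. For DOX day 14 against 12, DESeq2 called 30, limma-voom 38 and the replicate block 24. A pseudocount of 5 gave -0.21 for NDUFA4L2 to NDUFA4. The causes were not tested. Leaving out 1 library at a time gave 48 to 53 subunits higher on average, and calls of 9 to 30 on day 14, 34 to 47 on day 16, 29 to 37 on day 18 and 8 to 22 on day 20. It gave 0 to 9 for DOX day 14 against 12, 1 to 18 for DOX day 16 against 14, 28 to 36 for UT day 16 against 14, 0 to 5 for the change over days 12 to 20 and 9 to 34 for that over days 14 to 16. The ratio ATP5MC1 to ATP5MC2 lay between 0.14 and 0.21, COX8A between -0.0053 (without the second UT library of day 14) and 0.15, and UQCRC1 between -0.062 and 0.0040 (without the first UT library of day 16).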
